A study of Rattus norvegicus with 20 samples.

Results

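The effect of a fish oil diet during chemotherapy was examined by comparing gastrocnemius muscle of CHEMO FO with that of CHEMO STD, which together make up 15 of the 20 sequenced samples. Samples were assigned by their labels, 8 to CHEMO FO (numbered 13 to 20) and 7 to CHEMO STD (numbered 1 to 7). CHEMO STD 1 and 2 were nearly identical and were counted as 1 sample, so 8 samples were compared with 6. All animals were female Fischer 344 rats, given an age of 11–12 in the study's methods with no unit, and all carried an implanted Ward colorectal carcinoma. Both arms received 2 cycles of chemotherapy, each consisting of CPT-11 (irinotecan, a topoisomerase I inhibitor) followed a day later by 5-fluorouracil (5-FU, an inhibitor of thymidylate synthesis). CHEMO STD stayed on a semipurified standard diet throughout. CHEMO FO was switched, when chemotherapy began, to an isocaloric diet that also held the marine n-3 fatty acids eicosapentaenoic acid (EPA) and docosahexaenoic acid (DHA). Tumour-bearing rats on the standard diet without chemotherapy (TUMOUR STD, 5 samples) entered the model only to share its estimate of the spread. Fish oil was always combined with chemotherapy, so its effect in untreated muscle was not analysed here, and each sample is a small piece of whole muscle in which every cell type contributes RNA.

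Gastrocnemius is a calf muscle built mainly of fast fibres, between which lie vessels, nerve branches wrapped by Schwann cells, connective tissue and a small number of resident leukocytes. EPA and DHA are taken up into membrane phospholipids, bind nuclear receptors of the PPAR family and compete with arachidonic acid as substrates for eicosanoids. Muscle also holds genes that answer quickly to outside signals. The immediate early genes, such as Fos, are transcribed within minutes of a stimulus, whereas the ubiquitin ligases Trim63 (MuRF1) and Fbxo32 (atrogin-1) rise in wasting muscle under the control of FOXO factors and glucocorticoids.

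Gene counts per library ranged from 3041142 to 9130631 in CHEMO FO and from 3023899 to 10537322 in CHEMO STD. Levels are given as CPM, counts scaled to a common TMM-adjusted library size, and compare a gene between samples but not different genes with each other. All samples were plainly muscle, with the fast myosin Myh4 between 61322 and 112397 CPM. CHEMO FO 18 stood apart from the other samples of its arm. Its mean rank correlation with them was 0.910, against 0.947 to 0.962 for the others, and it had the lowest Myh4 level. In CHEMO STD the same correlation was 0.958 to 0.971, lowest in the CHEMO STD 1 and 2 pair and 0.962 in CHEMO STD 7. CHEMO STD 7 thus lay within its arm by this measure. It was set apart by white blood cell genes, and CHEMO STD 7 together with the CHEMO STD 1 and 2 pair by myelin genes. Fits without CHEMO FO 18 and CHEMO STD 7 keep the pair. The labels give no batch, date or position in the muscle for these samples. In the library names, CHEMO STD 1 and 2 share a stem and carry the letters MB, where all other samples carry VM. What these letters stand for is not given. Results that rest on them are given with and without them, including a fit without CHEMO STD 1, 2 and 7, in which 2.62% of genes were called (1.36% higher and 1.26% lower).

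Genes were called at the study's thresholds of p below 0.05, unadjusted, with at least 1.5-fold between the arms. By these, edgeR's quasi-likelihood test called 195 of 11716 genes (1.66%). Of these, 72 (0.615%) were higher in CHEMO FO and 123 (1.05%) were lower. After Benjamini-Hochberg adjustment no gene remained below 0.05 in edgeR, where the smallest adjusted p was 0.974, nor in DESeq2 or limma voom. Unadjusted p values below 0.05 were reached by 528 genes, fewer than the 585.8 that 11716 tests give when nothing differs. The median log2 fold change over all genes tested was -0.01. "Called" below therefore means past the study's thresholds only, and no single gene below withstood correction for the number of genes tested. The study counts each sample as an animal, and the near-identical CHEMO STD 1 and 2 are the exception made here.

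Single samples decided much of the list. CHEMO FO 18 held the highest CHEMO FO level in 53 of the 72 genes called higher, and 14 of the 72 were still called without it. CHEMO STD 7 held the highest CHEMO STD level in 69 of the 123 genes called lower, and 62 of the 123 were still called without it, when 1.3% of all genes were called. Without both samples 130 of 11600 genes were called (1.12%), 42 higher (0.362%) and 88 lower (0.759%), and 56 of the 195 were among them, 11 higher and 45 lower.

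**Figure D1:**
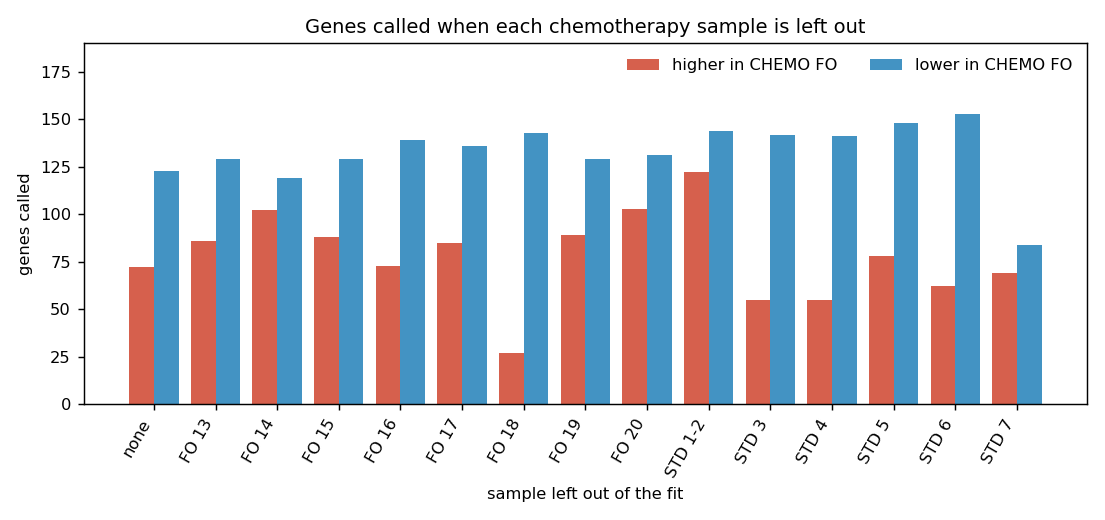
Number of genes called higher (red) and lower (blue) in CHEMO FO when no sample or each chemotherapy sample in turn is left out of the fit (STD 1-2 is the near-identical pair). Genes called higher range from 27 without CHEMO FO 18 to 122 without the CHEMO STD pair, and genes called lower from 84 without CHEMO STD 7 to 153 without CHEMO STD 6.

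A set of 26 genes was called in each of 19 fits that left out 1 sample and also without both of these samples, 6 higher and 20 lower. In 14 of the 19 fits the sample left out belonged to CHEMO FO or CHEMO STD. The other 5 left out a TUMOUR STD sample, which removes no count of either arm. Those 5 bear only on the shared estimate of the spread, the scaling and the filter. Numbers given below out of 19 fits include them. Among the 26 genes, the 4 higher ones with gene symbols were Fos, Ccn1, Apold1 and Abhd17c. Fos, Ccn1 and Apold1 belong to the immediate early list and are described with it. Abhd17c, which encodes a depalmitoylating enzyme, was at 4.05 to 7.20 CPM in CHEMO FO and at 1.53 to 4.92 in CHEMO STD. Its log2 fold change was 0.73 ± 0.24 (SE), with 4 of 8 CHEMO FO samples above all of CHEMO STD.

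The genes with symbols that were lower in all of these fits numbered 15, and 13 of them had a mean below 5 CPM in CHEMO FO. Dapp1, an adaptor of phosphoinositide signalling in B cells, ranged from 0 to 1.60 CPM (median 0.973) in CHEMO FO and from 1.22 to 4.13 (median 2.34) in CHEMO STD. Its log2 fold change was -1.31 ± 0.36, and -1.22 ± 0.38 without both samples. Armcx4 was at 2.53 to 6.44 CPM (median 5.04) in CHEMO FO and 5.70 to 10.1 (median 7.99) in CHEMO STD, and its change of -0.70 ± 0.20 became -0.85 ± 0.20 without both samples. In Armcx4, 5 CHEMO FO samples lay below every CHEMO STD sample, and here CHEMO STD 7 was the lowest of its arm. The tyrosine phosphatase Ptpn18 was lower by -1.15 ± 0.32 on the log2 scale and the Cdc42 exchange factor Fgd3 by -1.34 ± 0.38. For both, CHEMO STD 7 was over 2-fold above the next CHEMO STD sample (7.67 and 8.66 CPM). Without both samples the changes were -0.76 ± 0.29 for Ptpn18 and -0.92 ± 0.36 for Fgd3. Also called lower in the 19 fits and without both samples were the lysophosphatidic acid receptor Lpar6 (-0.89 ± 0.26), the leucine-rich repeat protein Lrrc17 (-0.97 ± 0.30) and the tartrate-resistant acid phosphatase Acp5 (-1.35 ± 0.43), of which Lrrc17 and Acp5 were not called without CHEMO STD 1, 2 and 7. Ciita, the coactivator of MHC class II genes, was called in all 19 single-sample fits but not without both (-1.27 ± 0.40, then -0.71 ± 0.36), and it reached 13.6 CPM in CHEMO STD 7 against 1.22 to 5.59 in the other CHEMO STD samples.

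Immediate early genes leaned toward CHEMO FO as a group. Of 36 members tested, 34 had a higher mean level in CHEMO FO and 8 were called higher (22.2% of the members, against 0.615% of all genes), and their median log2 fold change was 0.44 against -0.01 over all genes. In the fit without CHEMO FO 18, 3 of 35 were called higher (0.233% of all genes were) and the median was 0.24. Without CHEMO FO 18 and CHEMO STD 7, 30 of 35 were higher, 5 were called (0.362% of all genes) and the median was 0.17. The count also depended on the CHEMO STD pair, and 14 members were called when the pair was left out, in a fit that called 122 genes higher. Summed over the list, CHEMO FO 18 had 1380 CPM, the other 7 CHEMO FO samples 606 to 1039, and the CHEMO STD samples 507 to 990, the 990 being the CHEMO STD pair.

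Fos, the transcription factor that pairs with Jun in AP-1, had the smallest p of all genes (adjusted p = 0.974 in edgeR). It ranged from 10.8 to 40.2 CPM (median 20.1) in CHEMO FO and from 6.43 to 14.8 (median 9.71) in CHEMO STD. In 6 of 8 CHEMO FO samples Fos exceeded every CHEMO STD sample, and the other 2 overlapped with the upper CHEMO STD samples. The log2 fold change was 1.23 ± 0.27, and 1.19 ± 0.27 without both samples that stood apart. Ccn1 (Cyr61), a secreted matrix-associated protein, was at 18.4 to 55.4 CPM (median 36.5) in CHEMO FO and at 10.7 to 31.5 (median 21.0) in CHEMO STD. Its log2 fold change was 0.93 ± 0.23, and again 6 of 8 CHEMO FO samples were above all of CHEMO STD. Apold1, an endothelial early response gene, was at 2.64 to 21.5 CPM in CHEMO FO and 0.918 to 5.05 in CHEMO STD, a log2 fold change of 1.33 ± 0.41. CHEMO FO 18 was not the highest sample for either Ccn1 or Apold1.

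Dusp1, a phosphatase that switches off MAP kinases, was at 55.9 to 115 CPM (median 70.1) in CHEMO FO and 38.7 to 64.5 (median 51.0) in CHEMO STD. The log2 fold change of 0.59 ± 0.20 lies on the 1.5-fold threshold, and 11 of 19 single-sample fits called the gene. Zfp36 (tristetraprolin), which speeds the decay of cytokine mRNAs, was at 6.48 to 34.3 CPM in CHEMO FO and 3.81 to 19.7 in CHEMO STD (0.90 ± 0.36), and was not called without both samples (0.69 ± 0.38). Rrad, Maff and Errfi1 were called only with CHEMO FO 18 in the fit. Maff was at 47.6 CPM there, at 1.87 to 8.03 in the other CHEMO FO samples and at 3.18 to 7.08 in CHEMO STD. Rrad was at 200 CPM there against 14.7 to 60.5 in the other 7, and Errfi1 at 77.3 against 15.1 to 32.9. Jun, which was singled out after its values were seen, did not reach 1.5-fold (0.41 ± 0.16, and 0.53 ± 0.15 without both samples). CHEMO FO 18 had the lowest Jun level of its arm, 85.4 CPM, while the other 7 samples lay between 86.0 and 145.

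**Figure D2:**
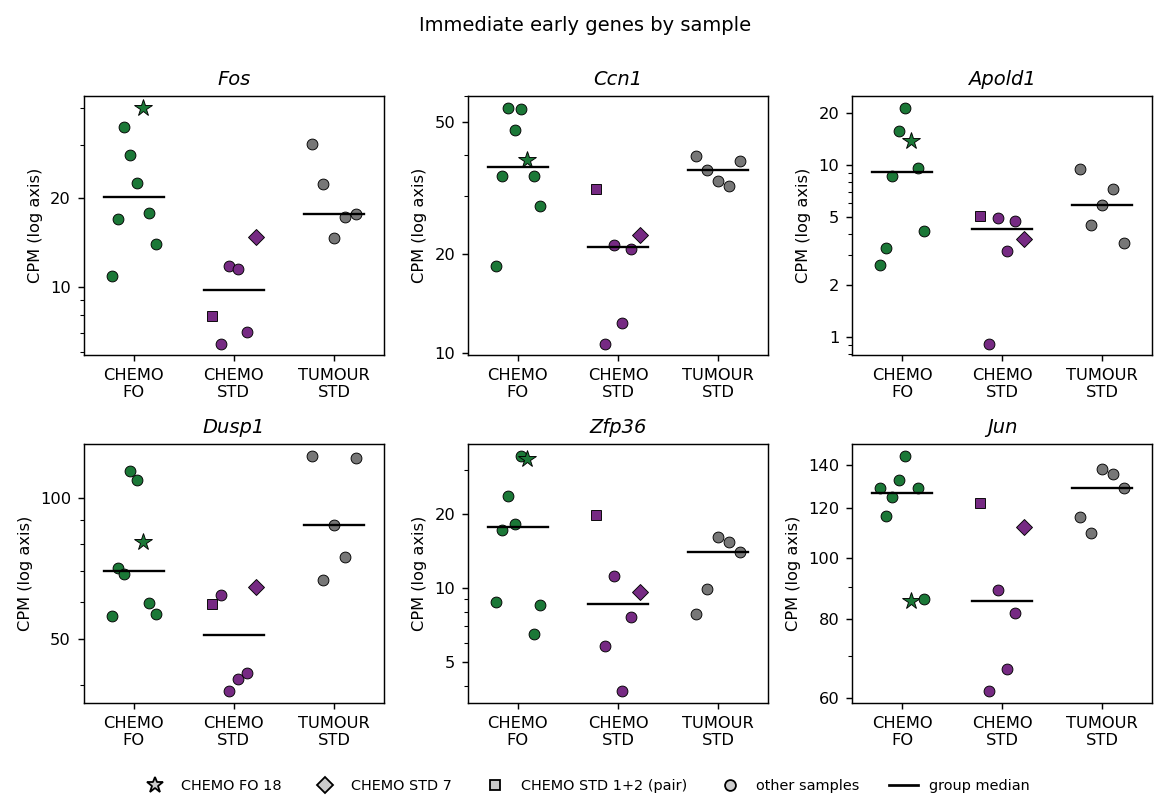
CPM (log axis) of 6 immediate early genes in every sample of CHEMO FO (green), CHEMO STD (purple) and TUMOUR STD (grey), with group medians as bars. In Fos and Ccn1, 6 of 8 CHEMO FO samples lie above all CHEMO STD samples, and the star of CHEMO FO 18 is the highest point of its arm in Fos but not in Ccn1, Apold1, Dusp1 or Jun.

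The same CHEMO STD samples also serve as the treated group in the comparison with TUMOUR STD, so the next values are set side by side only. In TUMOUR STD, Fos was at 20.4 ± 6.25 CPM (SD, n = 5), Ccn1 at 35.8 ± 3.18 and Jun at 126 ± 12.4. The corresponding means were 23.1 ± 10.3 (n = 8), 39.0 ± 13.0 and 118 ± 21.8 CPM in CHEMO FO, and 9.90 ± 3.27 (n = 6), 19.9 ± 7.58 and 88.8 ± 24.1 in CHEMO STD. For these genes CHEMO STD had the lowest mean of the 3 groups.

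The promoters of immediate early and heat shock genes are known for binding sites of cyclic AMP, serum response and heat shock factors. Of 10 called members of these lists, 7 had a promoter window of 300 bases in the RefSeq annotation (assembly GRCr8), and Fos, Rrad and Hspa1b were not among them. Windows were searched on both strands for the cyclic AMP response element TGACGTCA, which 1.83% of 33469 rat promoters hold, for the AP-1 site TGANTCA (7.33%), for the CArG box of serum response factor (1.64%) and for the heat shock core GAANNTTC (8.59%). The 250 bases before the annotated start are shown for the 4 genes with a match, with the matches in capitals, since they are the elements through which such genes are known to be switched on. A match is a run of letters and not evidence of binding.
Zfp36, chr1:92799109-92799358, minus strand, with a CArG box that begins 32 bases before the start: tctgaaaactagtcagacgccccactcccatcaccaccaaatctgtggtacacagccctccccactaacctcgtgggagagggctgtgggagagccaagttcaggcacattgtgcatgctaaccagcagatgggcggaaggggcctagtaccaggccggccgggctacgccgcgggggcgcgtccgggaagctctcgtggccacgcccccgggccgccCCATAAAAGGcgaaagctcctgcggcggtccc
Dusp1, chr10:17184603-17184852, plus strand, with a cyclic AMP response element 124 bases before the start: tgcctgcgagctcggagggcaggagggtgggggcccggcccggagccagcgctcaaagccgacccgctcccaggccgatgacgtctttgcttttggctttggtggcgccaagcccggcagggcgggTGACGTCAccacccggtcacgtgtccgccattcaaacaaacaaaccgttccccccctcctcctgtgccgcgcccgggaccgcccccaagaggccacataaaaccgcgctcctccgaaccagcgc
Maff, chr7:112792537-112792786, plus strand, with a cyclic AMP response element 51 bases before the start: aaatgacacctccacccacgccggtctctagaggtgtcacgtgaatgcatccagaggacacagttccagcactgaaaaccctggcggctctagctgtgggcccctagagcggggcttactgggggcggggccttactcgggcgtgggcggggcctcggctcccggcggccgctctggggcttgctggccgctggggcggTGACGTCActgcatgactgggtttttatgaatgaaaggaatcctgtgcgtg
Hspb1, chr12:26432302-26432551, minus strand, with heat shock cores 129 and 109 bases before the start: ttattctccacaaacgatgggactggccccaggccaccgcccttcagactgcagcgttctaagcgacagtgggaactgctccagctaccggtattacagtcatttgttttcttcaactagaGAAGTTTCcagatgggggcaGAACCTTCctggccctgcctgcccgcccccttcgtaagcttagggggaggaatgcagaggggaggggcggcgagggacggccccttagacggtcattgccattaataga
The windows of Ccn1, Apold1 and Errfi1 held none of the 4 motifs, which says only that these letters are not in those windows.

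Glucocorticoid response genes were called higher through CHEMO FO 18. Of 24 glucocorticoid response genes tested, 22 had a higher mean in CHEMO FO and 7 were called higher (0.615% of all genes were), and the list's median was 0.57 on the log2 scale. In the fit without CHEMO FO 18, 22 of 24 had a higher mean and the median was 0.30. There edgeR called none of them higher (0.233% of all genes were), with 1 at p below 0.05. Without both samples 1 was called (1.12% of all genes were). Summed over the list, CHEMO FO 18 had 10577 CPM, the other CHEMO FO samples 1761 to 4064 and CHEMO STD 1663 to 2611. The upper end of the other CHEMO FO samples was set by CHEMO FO 15 (3907 CPM) and CHEMO FO 17 (4064 CPM), both above all of CHEMO STD.

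The metallothionein Mt2A, a metal-binding stress protein, showed this most clearly. It was at 727 CPM in CHEMO FO 18, at 1.87 to 11.1 in the other 7 CHEMO FO samples and at 0.612 to 3.57 in CHEMO STD. Its log2 fold change of 5.38 ± 1.42 became 0.91 without that sample and was then not called. Trim63 was at 2589 CPM in CHEMO FO 18 and 194 to 415 in the other CHEMO FO samples, against 202 to 260 in CHEMO STD, and its change of 1.25 ± 0.49 became 0.14 without CHEMO FO 18. Fbxo32 was at 1865 CPM in CHEMO FO 18, at 171 to 650 in the other 7 and at 216 to 463 in CHEMO STD. Its change of 0.92 ± 0.43 became 0.30. Glul, the glutamine synthetase of wasting muscle, was high in both CHEMO FO 18 (2089 CPM) and CHEMO FO 15 (1790 CPM), against 423 to 870 in CHEMO STD. Foxo1 itself was called at 0.59 ± 0.25, with 48.4 CPM in CHEMO FO 18 and 12.6 to 25.8 in the other CHEMO FO samples. It was called in 13 of 19 single-sample fits and not without both samples (0.28 ± 0.20).

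CHEMO FO 18 was also far above the rest in genes of other functions. Gpnmb, a glycoprotein of activated macrophages, was at 226 CPM there and at 4.55 to 13.4 in the other 7 samples. Ankrd1, a stretch-responsive ankyrin repeat protein, was at 348 CPM there and at 6.95 to 28.1 in the others. Tubulin Tubb6 was at 210 against 10.6 to 19.6 and complement C3 at 68.9 against 0.480 to 1.41. Cdkn1a (p21), the cell cycle inhibitor induced by p53, was at 183 CPM there, and CHEMO FO samples otherwise ranged from 8.64 to 80.7. Major muscle transcripts were at their lowest in this sample. Myh4 was at 61322 CPM against 84512 to 112397 in the other 7, and Ckm, the muscle creatine kinase, which was singled out after its values were seen, at 16411 against 26611 to 39117. The whole glycolysis and glycogen list summed to 36493 CPM in CHEMO FO 18 and to 63817 to 77555 in the others. Macrophage genes summed to 1328 CPM in this sample against 339 to 518 in the other 7. Such a sum is carried by its most abundant members. Lyz2, lysozyme, was within the range of the other 7 (42.9 CPM against 32.4 to 53.1), as was the leukocyte gene Ptprc (11.5 against 6.15 to 12.6). The pan-leukocyte sum (275 against 180 to 236) and the MHC class II sum (429 against 181 to 296) were above it. The part of this sample's condition, or of its place in the muscle, in these values was not tested.

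**Figure D3:**
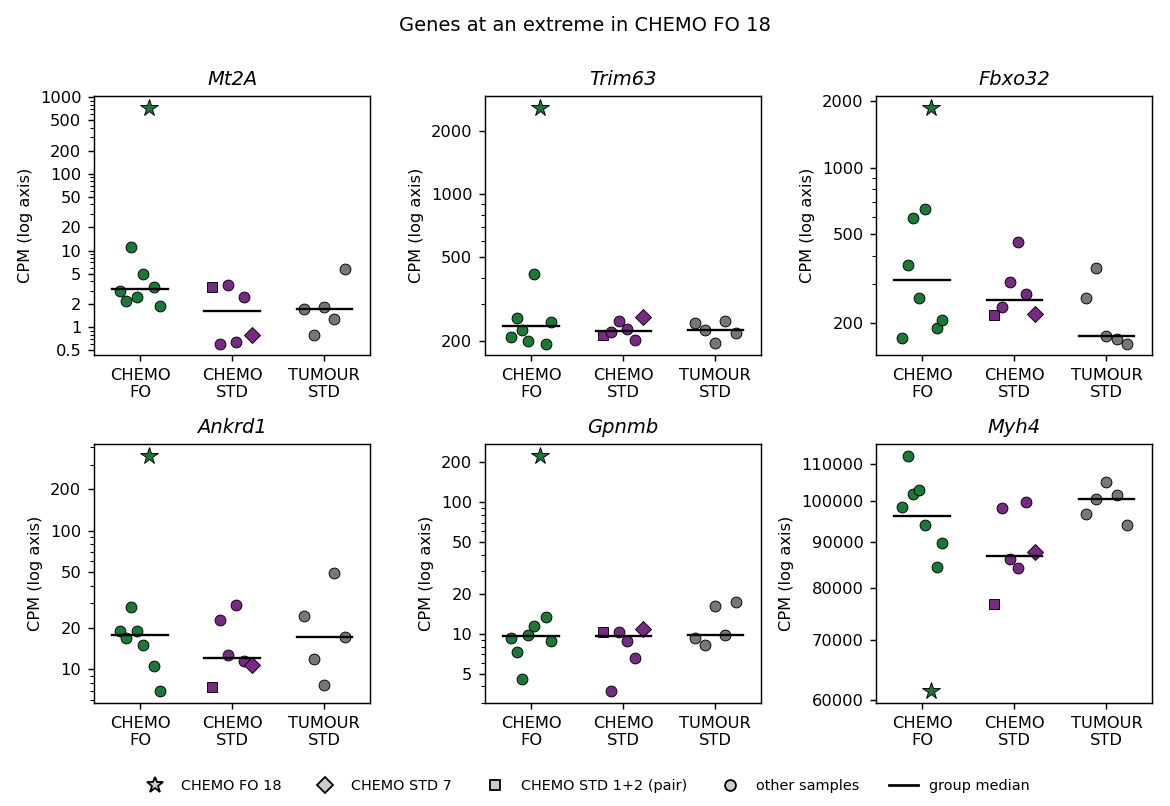
CPM (log axis) of 6 genes in every sample of CHEMO FO (green), CHEMO STD (purple) and TUMOUR STD (grey), with group medians as bars. The star of CHEMO FO 18 lies above all other samples in Mt2A, Trim63, Fbxo32, Ankrd1 and Gpnmb and below all others in Myh4.

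Protein breakdown genes showed the same dependence. Of 29 atrophy and FOXO genes 24 were higher and 3 called (1.66% of all genes were), with a median of 0.19. Without both samples 16 of 29 were higher and the median was 0.04. None was then called by edgeR (1.12% of all genes were), with 1 at p below 0.05. Proteasome subunits were higher in 32 of 33 genes by a median of 0.19 and none was called by edgeR, with 3 at p below 0.05 but under 1.5-fold. The list summed to 7046 CPM in CHEMO FO 18 against 3585 to 4232 in the other CHEMO FO samples and 3427 to 3998 in CHEMO STD. Without both samples, 24 of 33 were higher with a median of 0.06. Heat shock and chaperone genes were higher in 25 of 29, with a median of 0.27 and 2 called (1.66% of all genes were). The 2 were Hspa1b (1.15 ± 0.51) and Hspb1 (0.69 ± 0.33). Without both samples the median was 0.13 and 1 other member was called (1.12% of all genes were). Hspa1b (0.39 ± 0.45) and Hspb1 (0.31 ± 0.21) were then not called. Hspb1, the small heat shock protein of muscle whose promoter is shown above, was at 1002 CPM in CHEMO FO 18 and at 127 to 328 in the other 7, against 141 to 283 in CHEMO STD. The ribosomal protein genes, 64 in number, had a median of 0.05 and none was called by edgeR, with 2 at p below 0.05.

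White blood cell genes leaned toward CHEMO STD. All 34 pan-leukocyte genes tested had a lower mean in CHEMO FO and 12 were called lower (35.3%, against 1.05% of all genes), and the list's median was -0.60 on the log2 scale. In bulk muscle, fewer cells of a type and less RNA per cell cannot be told apart. Without CHEMO STD 7, 24 of 32 were lower, none was called by edgeR, with 3 at p below 0.05, and the median was -0.15. Without CHEMO FO 18 and CHEMO STD 7, 28 of 31 were lower, 2 were called lower (0.759% of all genes were) and the median was -0.28. Summed over the list, CHEMO STD 7 had 675 CPM, the other CHEMO STD samples 202 to 280 and the CHEMO FO samples 180 to 275.

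Ptprc (CD45), the phosphatase carried by all leukocytes, was at 6.15 to 12.6 CPM (median 9.91) in CHEMO FO and at 10.1 to 65.9 (median 12.0) in CHEMO STD. CHEMO STD 7 was the 65.9, and the next sample of its arm was at 17.4. Without it the change of -1.16 ± 0.34 became -0.38, so that Ptprc kept its direction but lay under the 1.5-fold threshold. Coro1a, an actin regulator of leukocytes, was at 56.3 CPM in CHEMO STD 7, at 2.54 to 6.83 in the other CHEMO STD samples and at 2.64 to 7.68 in CHEMO FO, and its change of -1.75 ± 0.57 became -0.24. Rac2, a small GTPase of leukocytes, was at 22.4 CPM in CHEMO STD 7 and at no more than 3.94 in any other sample of the 2 arms. Its change of -1.13 ± 0.45 became -0.14. Lyz2, lysozyme of macrophages and neutrophils, was at 32.4 to 53.1 CPM in CHEMO FO and, apart from the 170 of CHEMO STD 7, at 45.9 to 68.6 in CHEMO STD, with a change of -0.80 ± 0.23 that became -0.39. The adaptor Fyb1 was less dependent on that sample (-0.94 ± 0.28, then -0.57), with 6 of 8 CHEMO FO samples below all of CHEMO STD.

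Lists of single white blood cell types had few tested members. The summed level of the T cell list was 148 CPM in CHEMO STD 7, against 25.2 to 36.1 in the other CHEMO STD samples and 23.7 to 35.1 in CHEMO FO. B cell genes summed to 265 CPM in CHEMO STD 7, against 31.5 to 48.8 and 27.6 to 46.8. Neutrophil genes summed to at most 8.46 CPM in any sample of either arm, and no member passed the filter. MHC class II genes were lower in 7 of 8, with 2 called lower, Ciita and RT1-Ba (1.05% of all genes were). Without both samples edgeR called none of the 8, with 0 at p below 0.05 and a median of -0.21 in place of -0.47. Macrophage genes, whose sum was high in CHEMO FO 18, were lower in 13 of 23 (median -0.08). Without both samples 20 of 23 were lower (median -0.29) and 2 were called (1.12% of all genes were). Mast cell genes were lower in all 9 tested with a median of -0.29. Among them Cma1, the mast cell chymase, was at 1.76 to 6.96 CPM (median 3.60) in CHEMO FO and 4.45 to 10.4 (median 5.85) in CHEMO STD, with 7 of 8 CHEMO FO samples below all of CHEMO STD, and was called in all 19 single-sample fits and without both samples (-0.91 ± 0.30, then -0.75 ± 0.32) but not without CHEMO STD 1, 2 and 7 (-0.51). Mast cell genes as a list were lower in 7 of 9 without both samples, with a median of -0.17.

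Myelin and Schwann cell genes were lower in 11 of 13 tested members and 6 were called lower (1.05% of all genes were), with a median of -0.64. Mbp, the myelin basic protein, was at 9.18 to 15.2 CPM (median 11.8) in CHEMO FO and at 7.03 to 62.8 (median 16.8) in CHEMO STD, a log2 fold change of -1.12 ± 0.40. The 62.8 was the CHEMO STD pair and the next, 38.9, was CHEMO STD 7, while the other 4 CHEMO STD samples lay between 7.03 and 19.6, around the range of CHEMO FO. Prx (periaxin), a Schwann cell protein that stabilises myelin, followed the same order, with 32.7 CPM in the pair, 23.4 in CHEMO STD 7, 7.78 to 11.0 in the other 4 and 4.19 to 14.6 in CHEMO FO (-0.82 ± 0.39). Without the pair edgeR called no myelin gene, and with CHEMO STD 1, 2 and 7 all left out 7 of 12 members were higher in CHEMO FO (median 0.18). Collagen and tendon lists were at their highest in the same pair, with sums of 16079 CPM for collagen and matrix genes against 4565 to 8727 in the other CHEMO STD samples and 3348 to 11338 in CHEMO FO.

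**Figure D4:**
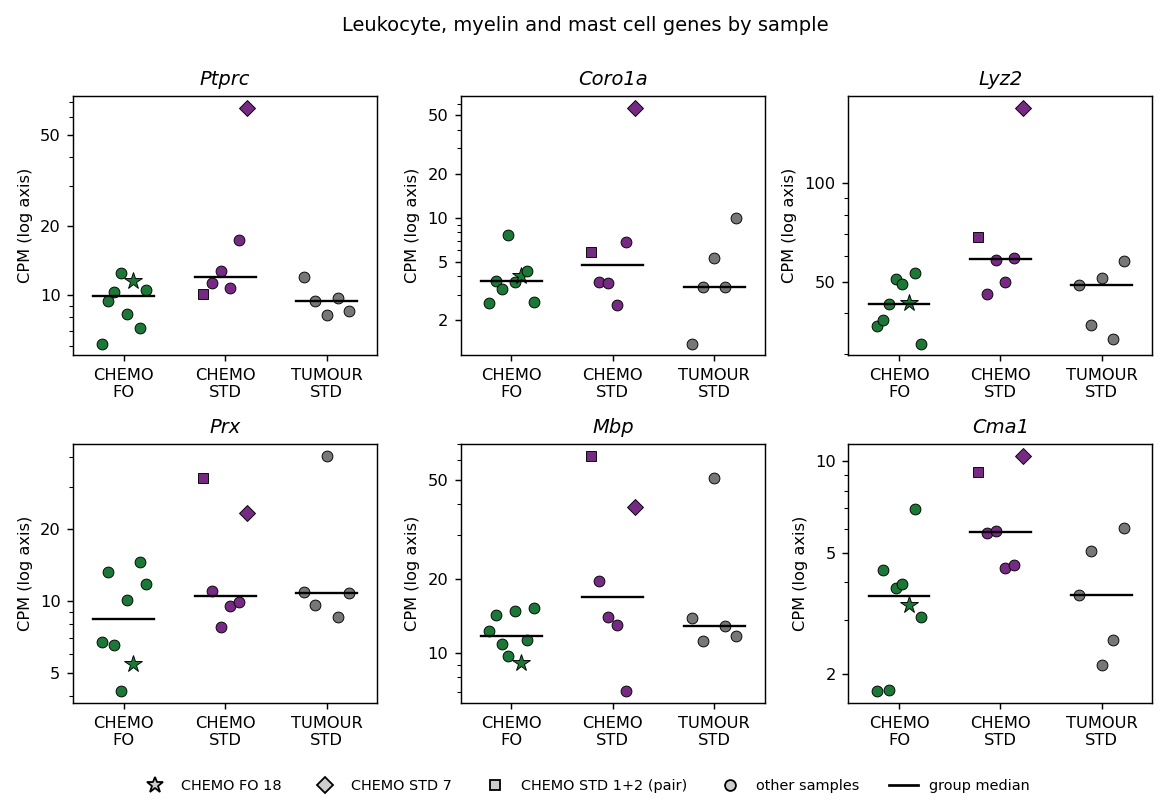
CPM (log axis) of leukocyte (Ptprc, Coro1a, Lyz2), myelin (Prx, Mbp) and mast cell (Cma1) genes in every sample of CHEMO FO (green), CHEMO STD (purple) and TUMOUR STD (grey), with group medians as bars. The diamond of CHEMO STD 7 is the highest CHEMO STD point of the leukocyte genes and of Cma1, the square of the CHEMO STD pair is the highest CHEMO STD point of Prx and Mbp, and the other CHEMO STD samples largely share the range of CHEMO FO in Coro1a, Prx and Mbp.

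Genes of lipid handling, on which EPA and DHA are known to act, did not separate the arms at the thresholds used. Of 37 tested genes of fatty acid uptake, oxidation and PPAR targets, 28 were higher in CHEMO FO both with all samples (median 0.12) and without both samples (median 0.15), and none was called by edgeR in either fit, with 2 and 3 at p below 0.05 but under 1.5-fold. The next genes were picked after their values were seen. Ppard, a nuclear receptor that fatty acids activate, was at 15.8 to 23.4 CPM in CHEMO FO and 9.79 to 18.9 in CHEMO STD (0.50 ± 0.18, under 1.5-fold), and the malonyl-CoA decarboxylase Mlycd at 50.8 to 128 and 47.8 to 67.4 (0.45 ± 0.17). In each of these, 5 of 8 CHEMO FO samples were above all of CHEMO STD. Pdk4, a switch from glucose to fatty acid use, was at 1047 CPM in CHEMO FO 17 and 1115 in CHEMO FO 18, and at 58.3 to 184 in the other 6, against 60.8 to 335 in CHEMO STD. Ucp3, the muscle uncoupling protein, reached 624 CPM in CHEMO FO 17 and 54.7 to 155 in the other 7.

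Lipogenesis genes were higher in 21 of 32 with no call by edgeR and 0 at p below 0.05. Without both samples, when 1.12% of all genes were called, 24 were higher and 2 were called. In these genes CHEMO FO 20 held the largest sum, 3618 CPM, against 1310 to 2278 in the other CHEMO FO samples and 1581 to 2336 in CHEMO STD. In that sample the desaturase Scd was at 749 CPM and fatty acid synthase Fasn at 543, against no more than 109 and 95.7 in the other CHEMO FO samples. Adipocyte genes summed to 1987 CPM in CHEMO FO 20 and 1500 in CHEMO STD 7. All other samples of both arms were at 614 to 948 CPM. The list turned from 6 of 16 higher (median -0.12) to 14 of 15 higher (median 0.52) without CHEMO FO 18 and CHEMO STD 7. That fit leaves out the largest CHEMO STD sum and a low CHEMO FO sum (651 CPM in CHEMO FO 18) but keeps CHEMO FO 20. The turn is therefore no sign of a difference between the arms. In that fit 2 of the 15 were called (1.12% of all genes were). Scd is itself in the adipocyte list. Adipoq (adiponectin), which marks adipocytes, was at 84.2 CPM in CHEMO FO 20, at 120 in CHEMO STD 7 and at no more than 24.8 in the other CHEMO STD samples, and the part of adipocytes in the Scd and Fasn levels was not tested. Phospholipase and eicosanoid genes, 25 tested, had 1 call in each direction (0.615% of all genes were called higher and 1.05% lower). Pla2g2a, a secreted phospholipase A2, was at 52.3 CPM in CHEMO FO 18, at 0.802 to 4.54 in the other 7 and at 0 to 3.38 in CHEMO STD, and its change of 2.51 ± 0.85 became 0.72 without that sample and was then not called. Ltc4s, leukotriene C4 synthase, was lower (-0.88 ± 0.42), with 0.0909 CPM in CHEMO FO 18, and was called in 9 of 19 single-sample fits.

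Contractile and energy genes had medians near 0. Fast fibre genes had a median of -0.05 (0.04 without both samples), slow fibre genes 0.13 (0.16), oxidative phosphorylation genes -0.03 (0.06) and glycolysis and glycogen genes -0.01 (0.10). Across these lists the 2 calls of edgeR were in glycolysis, Pfkfb3, which makes the main activator of phosphofructokinase (-0.62 ± 0.26), and the glucose transporter Slc2a1 (0.72 ± 0.35), both with overlapping groups. Slc2a1 was at 10.0 CPM in CHEMO FO 18 and at 2.81 to 5.27 in the other CHEMO FO samples. Without both samples Slc2a1 was not called (0.38 ± 0.35), while Pfkfb3 was (-0.61 ± 0.27). Of 19 single-sample fits, 8 called Slc2a1 and 11 called Pfkfb3. Pfkfb3 was at 152 to 424 CPM in CHEMO FO and 131 to 540 in CHEMO STD. Interferon-stimulated genes were lower in 25 of 31 (median -0.11) with 1 call (1.66% of all genes were called). IGF1 and insulin signalling, autophagy, clock and proliferation lists had medians of 0.12 or less in size with at most 1 call each. Genes that handle fluoropyrimidines and irinotecan had a median of -0.08 and no call by edgeR, with 1 at p below 0.05.

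**Figure D5:**
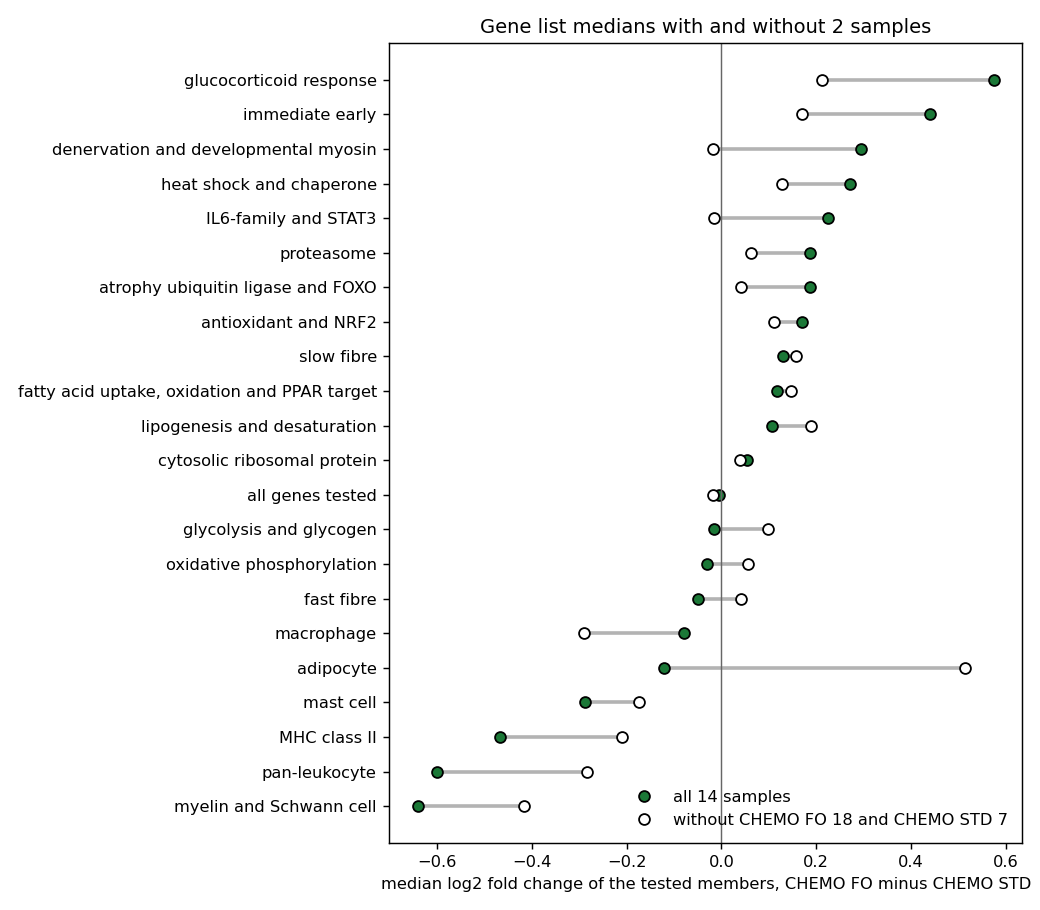
Median log2 fold change (CHEMO FO minus CHEMO STD) of the tested members of 21 gene lists and of all genes tested, with all samples (green) and without CHEMO FO 18 and CHEMO STD 7 (white). The medians of the glucocorticoid response (0.57 to 0.21), immediate early (0.44 to 0.17), pan-leukocyte (-0.60 to -0.28) and myelin lists (-0.64 to -0.42) move toward 0, and that of the adipocyte list changes sign.

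Few genes separated the arms completely. In 8 of 11716 genes (0.0683%) no CHEMO FO sample overlapped with CHEMO STD, 5 above (0.0427%) and 3 below (0.0256%), and 2 of these 8 were called, both unnamed loci. When nothing differs, a share of 0.000333 of genes would separate completely in each direction, given the arrangements of 8 and 6 samples. The shares found are near that, so the number of such genes is no sign of a difference between the arms. The 5 above were Tuba4a, an alpha-tubulin of muscle (607 to 858 CPM against 363 to 590), the translation initiation factors Eif4g1 (302 to 409 against 255 to 297), Eif3c (213 to 255 against 190 to 204) and Eif2b1 (23.4 to 33.1 against 19.3 to 23.2), and the ubiquilin Ubqln1 (74.7 to 108 against 66.3 to 71.3). Their log2 fold changes were 0.22 to 0.40, under the 1.5-fold threshold. Tmem237, a ciliary membrane protein, lay below, at 2.64 to 9.84 CPM against 10.0 to 13.2. These genes were singled out after their values were seen.

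The study names 43 genes for its diet comparison. They were chosen on these samples, so their counts are not independent evidence of direction. Of 22 that passed the filter, 16 were called, 10 higher and 6 lower, and 2 of them were called without CHEMO FO 18 and CHEMO STD 7. The leukocyte migration genes Itgb7 (6.88 CPM in CHEMO STD 7, 0.636 to 2.00 in the other CHEMO STD samples), Ptk2b (19.7 against 5.79 to 9.09) and Prkcb (15.9 against 3.36 to 4.77) were called lower, by -1.14 ± 0.49, -0.79 ± 0.29 and -0.88 ± 0.36. Without both samples Ptk2b (-0.40 ± 0.27) and Prkcb (-0.35 ± 0.29) were not called, and Itgb7 fell below the filter. The adhesion molecule Selp, a P-selectin of activated endothelium and platelets, was called higher, with 22.8 CPM in CHEMO FO 18 and 1.47 to 4.19 in the other 7. Without that sample its log2 fold change was 0.42. Ccl21 (-0.89 ± 0.47), Itga2 (-0.86 ± 0.43), Itgal (-1.17 ± 0.62), Was (-0.98 ± 0.48), Sdc4 (0.64 ± 0.36) and Timp1 (1.10 ± 0.58) were not called. Without both samples the direction turned for Itgal (0.40), Timp1 (-0.36) and Sdc4 (-0.017), and Ccl21 came to -0.18. For Itgal, the 14.6 CPM of CHEMO STD 7 stood against 0.612 to 1.65 in the other CHEMO STD samples and 0.293 to 3.96 in CHEMO FO.

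The other 21 of these genes fell below the filter, with a highest count of 95 in any sample of the 2 arms, and were compared singly on mean log2 CPM over all 3003 arrangements of 8 and 6 samples (exact permutation test, two-sided). In 8 of them the p, not adjusted, was below 0.05, 2 higher and 6 lower. The study named these genes from the same samples, so a small p here is not independent evidence of a difference. Dusp15, a phosphatase of myelinating cells, was at 0 to 0.844 CPM in CHEMO FO and 0.421 to 1.38 in CHEMO STD (exact p = 0.00233). Rd3l was at 0.586 to 2.44 CPM in CHEMO FO and 0.0505 to 1.24 in CHEMO STD (exact p = 0.00699). Cd22, a B cell lectin, was at 15.3 CPM in CHEMO STD 7, and its exact p of 0.034 became 0.11 without that sample. In edgeR with no filter, the adjusted p of each of these genes was 0.769.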

How the data were processed

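Total RNA from 20 gastrocnemius samples was depleted of ribosomal RNA and sequenced from stranded libraries. The authors deposited unnormalised whole-number counts per gene. Per the submitters' processing notes and the study's methods, reads were trimmed with Trim Galore 0.4.1 and aligned to the rat genome Rnor 6 with TopHat2 2.0.10, and genes were annotated in Partek Flow. How strand was used in counting is not given in the sources used here. The 388 rows without a gene name held 0.102% to 0.272% of each library's counts and were left out.

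Groups were taken from the labels. Members and gene lists were chosen with earlier results of these data known. CHEMO STD 1 and 2 differed least of all pairs within CHEMO FO or CHEMO STD and were summed to 1 sample. Their chi-square per degree of freedom was 2.23, against 13.7 to 255 in the other 48 pairs. It was taken over genes with at least 500 counts in the 2 libraries together. The value of 2.23 is above 1, so CHEMO STD 1 and 2 differed by more than counting noise alone. A symbol on several rows took the row with the most counts. Genes were filtered with filterByExpr (minimum count 10, minimum total 15), scaled by TMM and tested with edgeR 4.0.16 (quasi-likelihood, 3 conditions in 1 fit, prior count 2 for log2 CPM) in R 4.3.3, with Benjamini-Hochberg adjustment. SE is the standard error of the log2 fold change. Genes that the study names but that fall below the filter were compared by an exact permutation test. Alternatives were DESeq2 1.42.0, limma 3.58.1 (voom with sample weights), other scalings, filters and thresholds, and leaving out each sample. Leaving out CHEMO FO 18 and CHEMO STD 7, or CHEMO STD 1, 2 and 7, was chosen after seeing the data. The code of the edgeR fit was tested on simulated counts.

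Genes named are the 12 higher and 12 lower called genes with a symbol and the smallest p, called members of each list up to 6, and genes the study names, except where the text says that a gene was singled out. At the depth of the shallowest library, 3023899 counts, a gene of a few CPM has about 10 counts. Some genes that the rule would name are not reported here.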

Additional observations from a re-analysis of the deposited data

Results flagged for a closer look

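In 156 combinations of a named gene and an arm, the gap between the highest or lowest sample and its nearest neighbour was compared with the whole range of the arm on the log2 scale. A single sample stood apart in 39 of them. The nominal rate is about 1 in 20 for genes chosen without regard to single samples, and it was not measured in these data. That rate is no yardstick here, because most of these genes were named for calls to which CHEMO FO 18 and CHEMO STD 7 contributed. CHEMO FO 18 accounted for 23, CHEMO STD 7 for 10 and other samples for 6.

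CHEMO FO 18 stood above the rest of its arm in genes of stress and wasting and of several other functions. These were Mt2A (727 CPM), Tubb4b (490 CPM), Mettl1 (19.2 CPM), Cnksr1 (98.2 CPM), Zc3h12a (16.3 CPM), Tubb6 (210 CPM), Hspb1 (1002 CPM) and Tp53inp1 (52.8 CPM). Further genes were Gpnmb (226 CPM), C3 (68.9 CPM), Selp (22.8 CPM), Ampd3 (149 CPM), Ankrd1 (348 CPM), Myf6 (554 CPM), Trim63 (2589 CPM) and Pla2g2a (52.3 CPM). The remaining ones were Ppp1r15a (199.8 CPM), Txnrd1 (227 CPM), Adamts1 (182 CPM), Maff (47.6 CPM), Sdc4 (153 CPM) and Timp1 (60.6 CPM). It stood below the rest of its arm in Ltc4s (0.0909 CPM).

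CHEMO STD 7 stood above the rest of its arm in leukocyte genes, namely Lyz2 (170 CPM), Ptprc (65.9 CPM), Fyb1 (13.0 CPM), Coro1a (56.3 CPM), Cytip (11.8 CPM), Irf8 (16.1 CPM), Ptk2b (19.7 CPM), Rac2 (22.4 CPM), Prkcb (15.9 CPM) and Itgal (14.6 CPM). CHEMO STD 3 was lowest for Apold1 (0.918 CPM). CHEMO FO 16 was lowest for Dapp1 (0 CPM). CHEMO FO 17 was highest for Ptpn18 (2.81 CPM). CHEMO FO 16 was highest for Coro1a (7.68 CPM). CHEMO STD 5 was highest for Ampd3 (31.5 CPM). The CHEMO STD pair was highest for Slc2a1 (6.16 CPM).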

How the results depend on the processing

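No paired analysis was possible because the labels number the samples 1 to 20 without repeats, so the groups share no replicate number. No gene passed the adjusted threshold of 0.05 under any alternative (528 were below an unadjusted 0.05 in edgeR). The number of genes called (195) was 314 with DESeq2 on 3 conditions, 722 with no filter, 308 without CHEMO STD 1, 2 and 7, 58 at a 2-fold threshold and 528 with no fold threshold. In the same order of settings, genes called higher (72) numbered 246 with no filter, 160 without CHEMO STD 1, 2 and 7, 23 at 2-fold and 287 with no fold threshold, and 42 without CHEMO FO 18 and CHEMO STD 7. Leaving out 1 sample gave 27 (CHEMO FO 18) to 122 (the CHEMO STD pair). Genes called lower (123) numbered 227 and 206 with DESeq2 on 3 and 2 conditions, 476 with no filter, 35 at 2-fold and 241 with no fold threshold.

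Immediate early genes called higher (8) numbered 5 when only the 2 arms were fitted, 2 with voom, 5 without CHEMO FO 18 and CHEMO STD 7, 15 without CHEMO STD 1, 2 and 7, and 3 (CHEMO FO 18) to 14 (the pair) with 1 sample left out. Pan-leukocyte genes called lower (12) numbered 7 with voom, 2 without CHEMO FO 18 and CHEMO STD 7, 0 without CHEMO STD 1, 2 and 7, and 0 (CHEMO STD 7) to 17 (CHEMO STD 3) with 1 sample left out. Myelin genes called lower (6) numbered 10 with DESeq2 on 2 conditions and with no filter, 0 with voom, 2 without CHEMO FO 18 and CHEMO STD 7, 0 without CHEMO STD 1, 2 and 7, and 0 (the pair) to 7 (CHEMO STD 4) with 1 sample left out. The 8 genes below the filter with an exact permutation p below 0.05 became 5 (without the pair) to 10 (without CHEMO STD 5).

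Among called genes the direction changed for C3, to -0.80 and -0.76 with DESeq2 on 3 and 2 conditions and -0.12 with voom, for Maff to -0.056 with voom, and for Irf8 to 0.10 without CHEMO STD 1, 2 and 7. C3 (68.9 CPM) and Maff (47.6 CPM) were highest in CHEMO FO 18, to which voom gave its lowest sample weight, 0.147. In CHEMO STD the pair had the lowest weight, 0.439, and CHEMO STD 7 had 1.14. The cause of these changes in direction was not tested. Leaving out 1 sample changed the direction of no called gene that still passed the filter. Among genes that were named but not called, it turned for Itgal without CHEMO STD 7 (0.26) and for Timp1 (-0.29) and Sdc4 (-0.0092) without CHEMO FO 18, for Scd, Fasn, Ucp3 and Adipoq in at least 1 fit that left out 1 sample, and without both samples for Itgal, Timp1, Sdc4 and Adipoq (-0.50, then 0.83).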

Other observations

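ER stress and antioxidant genes, which were in no comparison above, had 22 of 27 and 22 of 28 members higher in CHEMO FO. Their medians were 0.15 and 0.17 on the log2 scale, with 1 call each (1.66% of all genes were called). Without CHEMO FO 18 and CHEMO STD 7, 13 of 27 and 19 of 28 were higher and the medians were -0.11 and 0.11. The ER stress list summed to 3686 CPM in CHEMO FO 18, against 1670 to 1841 in the other CHEMO FO samples. Erythroid genes, of which 4 were tested, were all lower in CHEMO FO with a median of -0.79 and 0 at p below 0.05 in edgeR. Their sum ranged from 15.9 to 874 CPM in CHEMO FO and from 123 to 914 CPM in CHEMO STD.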
